A study of Homo sapiens with 32 samples.

Results

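Long noncoding RNA (lncRNA) genes that carry at least 1 merged peak of N6-methyladenosine (m6A) sequencing were described in H1 and MEL1, which are human embryonic stem cell lines, on their way towards pancreatic β-cells. A gene was taken by its symbol, which had to be LINC or SNHG followed by a digit, MIR...HG, one of the well-known transcripts MALAT1, NEAT1, MEG3, H19, NORAD and OIP5-AS1, or to end in -AS1, -AS2, -AS3, -IT1 or -DT, and the rule set aside 1 LINC gene whose symbol also fits. It took 160 of the 7978 genes in the count table, with 361 of its 26073 peaks. The stages were S0 (undifferentiated), S3 (cells of the posterior foregut), S4 (progenitors of the pancreas) and S6 (immature cells resembling β-cells). Each line had 2 replicates at every stage, which the study calls independent biological samples without saying whether a number follows 1 differentiation through the stages, and each of the 16 RNA preparations gave an input library and a library of fragments bound by an m6A antibody (IP). No group carried a genetic change. S0 was the reference, and the later stages had passed through the media of the differentiation protocol, so that stage and agents cannot be told apart. Up to S3 these held GDF8, CHIR-99021, ascorbic acid, FGF7, TPB, SANT-1, retinoic acid and LDN-193189, up to S4 ascorbic acid, FGF7, SANT-1 and retinoic acid further on, and up to S6 also T3, ALK5 inhibitor II, zinc sulphate, heparin, GSiXX, N-Cys, Trolox and R428. Each genetic background was represented by 1 line, so that a difference between MEL1 and H1 is a difference between these lines as grown here.

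m6A is a methyl mark that a METTL3 and METTL14 enzyme complex writes on adenosines of nuclear RNA, and reader proteins of the YTH family bind it. On mRNAs it is known to cluster near the stop codon and in long internal exons, and it also occurs on lncRNAs, MALAT1 being a classic case. lncRNAs are transcribed by RNA polymerase II and often spliced and polyadenylated like mRNAs, and many are made only in a few cell types. Some serve as hosts from which small RNAs are cut, some run antisense to a protein-coding gene, and divergent transcripts (-DT) start beside the promoter of a neighbour and run the other way.

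By name the members fell into 33 intergenic LINC genes with 88 peaks, 75 antisense genes with 163, 36 divergent transcripts with 65, 8 hosts of microRNAs (MIR...HG) with 13, 4 hosts of small nucleolar RNAs (SNHG) with 9, the well-known MALAT1, NORAD and OIP5-AS1 with 22, and the intronic transcript GABPB1-IT1 with 1. NEAT1, MEG3 and H19 had no merged peak under these symbols and were not analysed here. The median member had 2 peaks, as did the median gene of the table, but 72 members (45%) had a single peak against 29.3% of all genes, and NORAD had the most with 9. Because the peaks had been called on these same libraries, a gene without a peak is outside the table, and a member is by construction a transcript from which the antibody recovered RNA somewhere in the study.

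The mature microRNAs that lie in the microRNA hosts are shown first, because the level of 5 of the 8 hosts was called different between stages or lines. The sequences are from RefSeq (GRCh38.p14), which held 12 mature microRNAs for the 8 hosts, and their 12 seeds (bases 2 to 8, in capitals) all differed. The 9 that lie in these 5 hosts are listed, and only the host transcript, not the mature microRNA, was measured here.
hsa-miR-22-5p (MIR22HG, chr17:1713952-1713973, minus strand): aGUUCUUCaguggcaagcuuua
hsa-miR-22-3p (MIR22HG, chr17:1713914-1713935, minus strand): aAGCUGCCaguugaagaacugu
hsa-miR-210-5p (MIR210HG, chr11:568150-568171, minus strand): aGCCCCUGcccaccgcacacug
hsa-miR-210-3p (MIR210HG, chr11:568112-568133, minus strand): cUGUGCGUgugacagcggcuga
hsa-miR-205-5p (MIR205HG, chr1:209432166-209432187, plus strand): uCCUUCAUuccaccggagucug
hsa-miR-205-3p (MIR205HG, chr1:209432203-209432223, plus strand): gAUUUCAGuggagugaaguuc
hsa-miR-1915-5p (MIR1915HG, chr10:21496609-21496630, minus strand): aCCUUGCCuugcugcccgggcc
hsa-miR-1915-3p (MIR1915HG, chr10:21496576-21496595, minus strand): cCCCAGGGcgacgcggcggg
hsa-miR-924 (MIR924HG, chr18:39622153-39622172, minus strand): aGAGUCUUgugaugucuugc

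The windows from 250 bases before to 50 bases after the annotated start are shown for 3 LINC genes and 1 microRNA host with large changes between stages, also from RefSeq (GRCh38.p14), which held such a window for 128 of the 160 members. Capitals mark matches to the motifs searched on both strands, which were AGATAA, a motif of GATA factors, TGTTTAC, a motif of forkhead factors, ATGCAAAT, the octamer bound by POU factors, CACGTG, an E-box, CCAAT, the motif of the nuclear factor Y complex, and TATAAA, the core promoter box, and no match shown overlaps another.
LINC02381, chr12:54125821-54126120, plus strand: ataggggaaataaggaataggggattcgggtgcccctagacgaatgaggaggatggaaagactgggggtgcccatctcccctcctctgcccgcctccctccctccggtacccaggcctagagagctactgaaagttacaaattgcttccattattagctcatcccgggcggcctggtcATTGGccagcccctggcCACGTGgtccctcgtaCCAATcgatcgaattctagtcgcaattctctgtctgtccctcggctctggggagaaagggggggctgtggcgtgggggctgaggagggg
LINC00479, chr21:41715726-41716025, minus strand: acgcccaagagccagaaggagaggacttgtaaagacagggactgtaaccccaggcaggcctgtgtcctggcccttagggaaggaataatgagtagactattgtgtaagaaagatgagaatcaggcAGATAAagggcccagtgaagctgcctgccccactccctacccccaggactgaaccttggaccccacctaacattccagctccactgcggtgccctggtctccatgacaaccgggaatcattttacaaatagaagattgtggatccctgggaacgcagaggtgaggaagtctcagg
LINC01108, chr6:14285405-14285704, minus strand: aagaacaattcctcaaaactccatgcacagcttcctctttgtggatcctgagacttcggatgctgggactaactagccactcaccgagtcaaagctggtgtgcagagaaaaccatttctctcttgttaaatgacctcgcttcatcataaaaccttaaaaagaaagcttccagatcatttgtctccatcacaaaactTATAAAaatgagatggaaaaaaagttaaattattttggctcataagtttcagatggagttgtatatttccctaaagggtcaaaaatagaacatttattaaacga
MIR210HG, chr11:568408-568707, minus strand: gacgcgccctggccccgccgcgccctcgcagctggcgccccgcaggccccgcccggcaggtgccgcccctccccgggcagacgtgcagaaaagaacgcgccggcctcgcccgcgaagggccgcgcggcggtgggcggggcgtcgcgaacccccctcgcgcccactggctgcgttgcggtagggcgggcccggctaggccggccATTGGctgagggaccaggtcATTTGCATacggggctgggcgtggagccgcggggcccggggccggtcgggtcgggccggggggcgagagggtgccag
The LINC02381 window held an E-box and 2 copies of CCAAT or its reverse ATTGG, that of LINC00479 a GATA motif, that of LINC01108 a TATA match, and that of MIR210HG an octamer and ATTGG. Windows of other members with large changes were searched but are not shown. Those of LBX2-AS1 and KRTAP5-AS1 held no match, and that of MIR22HG held only CCAAT and ATTGG. Across all 27305 windows AGATAA was found in 10.5% and in 3.91% of the 128 windows of members, TGTTTAC in 3.41% and 2.34%, ATGCAAAT in 1.8% and 1.56%, CACGTG in 7.43% and 8.59%, CCAAT in 35.7% and 36.7%, and TATAAA in 12% and 3.12%. The median window of a member had 65.8% G and C against 58.3% over all windows, with 69.7% in divergent transcripts, 65.5% in antisense genes and 59.3% in LINC genes. A match is a string of letters in the window and was not tested as a binding site.

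The input libraries held 2648841 to 6872461 reads in peaks (median 4308053) and the IP libraries 2374009 to 15650330, the 2 MEL1 IP libraries of S4 being the shallowest. In the input, 11.6% to 41.0% of reads were mitochondrial. In the IP it was 0.0466% and 0.0511% in the H1 libraries of S4, and 0.389% to 2.26% in all other libraries. Members took 0.468% to 0.787% of the input reads and 1.06% to 1.91% of the IP reads, and MALAT1 alone held 43.0% to 63.4% of the members' input. Of 8 foregut markers all 8 rose at S3 against S0, and 5 of the 6 markers of undifferentiated cells with counts fell. The lines did not differentiate alike. Levels are given in CPM, the reads of a gene relative to the scaled library total. The summed markers of undifferentiated cells were at 1609 to 1681 CPM in H1 and 346 to 349 CPM in MEL1 at S3, and at 916 to 953 CPM and 518 to 524 CPM at S6, and the endocrine markers with counts at 496 to 630.1 CPM in H1 and 65.8 to 69.8 CPM in MEL1 at S4 and at 795 to 823 CPM and 740.1 to 749 CPM at S6. The progenitor markers with counts were at 101 to 102 CPM in H1 and 43.8 to 45.9 CPM in MEL1 at S4, and at 36.4 to 40.2 CPM and 162 to 164 CPM at S6. The summed input of 3 hepatic markers (AFP, APOA1 and VTN) at S4 was 137 to 187 CPM in H1 and 62016.9 to 65263.3 CPM in MEL1, and that of 3 mesenchymal markers 40.3 to 54.8 CPM in H1 and 605 to 652 CPM in MEL1. At S6, 4 neural markers summed to 765 CPM in both H1 libraries and to 192 to 207 CPM in MEL1. Of 8 endocrine markers only CHGA, ISL1 and GLIS3 had counts, and of 6 progenitor markers PDX1, MNX1, SOX9 and ONECUT1, so that insulin, NEUROD1 and NKX6-1 could not be checked. Of 14 genes of the m6A machinery, 10 had counts (METTL3, METTL14, FTO and YTHDC2 were not analysed here) and none was called in any of the 5 comparisons of input level. These values move with line and stage beside every result below, and their part in the results was not tested. In bulk samples like these, fewer cells of a type and less RNA per cell cannot be told apart.

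The first comparison asks which lncRNAs changed as cells left the undifferentiated state. LINC02381, which lies close to the HOXC cluster, and LINC00479 appeared at S3 almost from nothing, LINC02972 fell to a small part of its level, and the small RNA hosts moved in both directions. Calls were made with edgeR's quasi-likelihood test, at a p below 0.1 after Benjamini-Hochberg adjustment and a change of at least 2-fold. PRSS23-AS1, with 9 input reads in all, was left out for its low count. Of the 159 members tested, 58 were called at S3 against S0 (36.5%), 22 higher and 36 lower, where 28.8% of all 7973 genes were called, 15.0% higher and 13.8% lower. The median log2 change was -0.16 over the members and -0.02 over all genes. The 4 libraries of S3 did not overlap those of S0 for 42 of the 159 members, 35 of them called, as was so for 33.4% of all genes. By class, 7 LINC genes rose and 7 fell of 33, 9 antisense genes rose and 15 fell of 74, 4 divergent transcripts rose and 11 fell of 36, 2 microRNA hosts rose and 1 fell of 8, and 2 of 4 SNHG genes fell.

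LINC02381 was at 0.242, 0, 0 and 0.218 CPM in H1 replicates 1 and 2 and MEL1 replicates 1 and 2 at S0, and at 90.9, 83.6, 85.9 and 81.9 CPM at S3. With 1570 reads against 2, this is a ratio of 770 (exact 95% counting interval 213 to 6360), and the groups lie far apart in both lines. At S6 the H1 libraries still held 87.2 and 83.0 CPM and the MEL1 libraries 29.6 and 27.9 CPM. LINC00479 had 1 read over the 4 libraries of S0 and reached 11.3 and 9.08 CPM in H1 and 89.7 and 65.2 CPM in MEL1 at S3, a ratio of 732 (131 to 28961). All libraries of S3 lay above those of S0, those of MEL1 highest. LBX2-AS1, antisense to the homeobox gene LBX2, had no read at S0 and 0.198, 1.86, 4.01 and 8.14 CPM at S3, at least 20.3-fold higher against a floor of 3 reads over the group. JMJD1C-AS1 rose by 3.84 ± 0.96 (log2, SE) with 60 reads against 3, a ratio of 19.6 (6.39 to 97.7), mainly in MEL1 (9.27 and 3.17 CPM, against 0.988 and 0.826 CPM in H1). It was no longer called without MEL1 replicate 1 (2.51, adjusted p = 0.107 by edgeR, Benjamini-Hochberg). KRTAP5-AS1 rose to 1.19, 1.03, 0.752 and 4.52 CPM from a single read at S0, a ratio of 33.3 (5.59 to 1355), and was not called without MEL1 replicate 2 (3.29, adjusted p = 0.114).

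**Figure D1:**
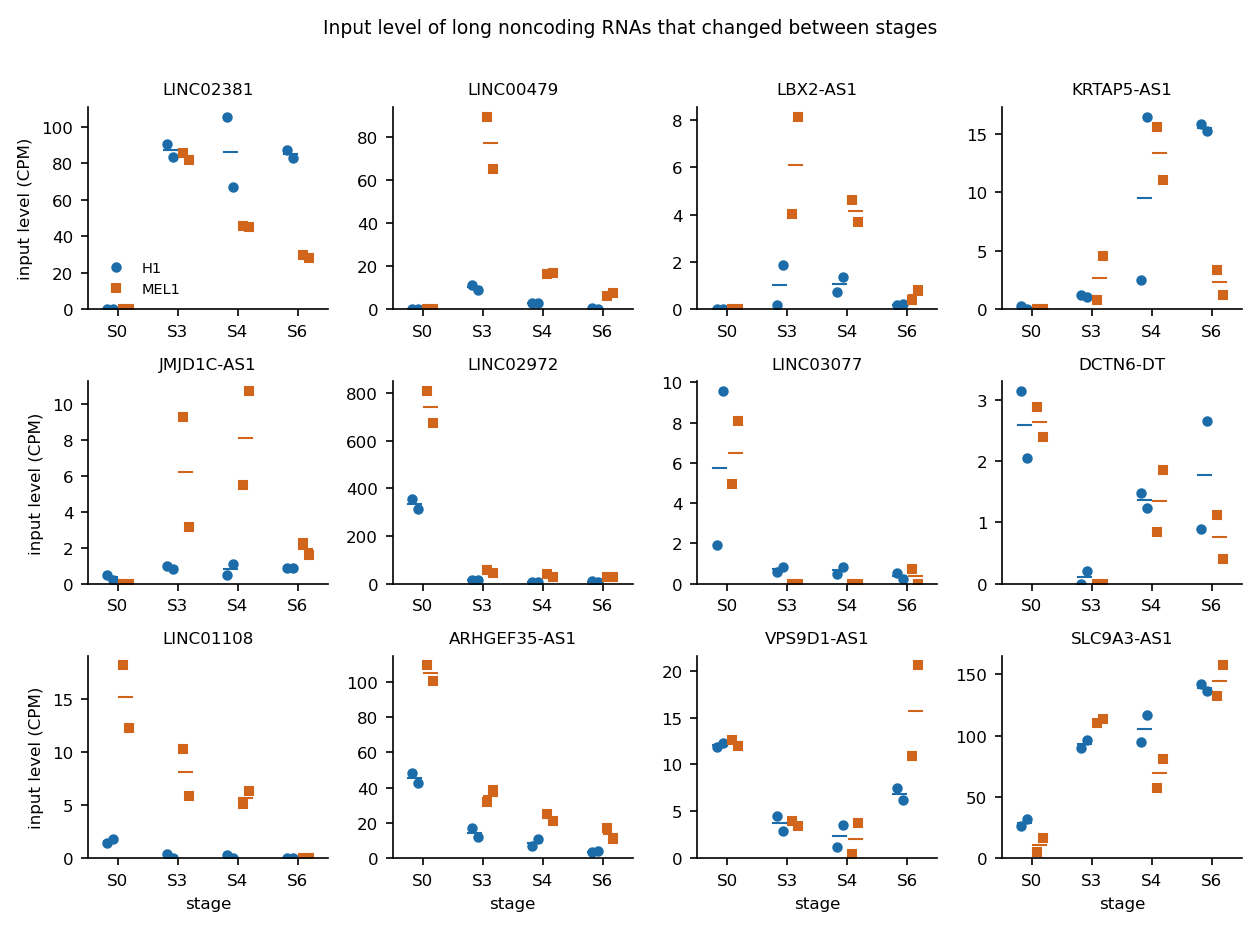
Input level (CPM) of 12 lncRNAs by stage. Circles are the H1 and squares the MEL1 libraries, and bars are the means of 2. LINC02381 and LINC00479 are near 0 at S0 and high at S3, LINC02972 and ARHGEF35-AS1 are highest at S0, and LINC01108 and LINC00479 are higher in MEL1.

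Among members that fell, LINC02972 was the most abundant, with 354, 314, 809 and 676 CPM at S0 and 16.6, 16.5, 59.4 and 43.2 CPM at S3. Its log2 change was -4.11 ± 0.22 (adjusted p = 2.97e-09 by edgeR, Benjamini-Hochberg), and the groups did not overlap. MEL1 stayed above H1 at every stage. DCTN6-DT, divergent to a gene of the dynactin complex, fell from 3.15, 2.05, 2.89 and 2.40 CPM to 1 read over the 4 libraries of S3, a ratio of 47.9 (8.20 to 1934). LINC03077 fell from 1.94, 9.57, 4.95 and 8.07 CPM to 0.593, 0.826, 0 and 0 CPM (-4.13 ± 0.82, adjusted p = 0.00105). ATP2A1-AS1, antisense to a gene of a calcium pump, fell by 2.64 ± 0.65 on the log2 scale (adjusted p = 0.00484). INKA2-AS1 fell by 2.72 ± 0.94 (adjusted p = 0.0309) but was not called without H1 replicate 2 (-2.61, adjusted p = 0.118) or MEL1 replicate 1 (-2.20, adjusted p = 0.164).

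SNHG genes carry small nucleolar RNAs in their introns. SNHG16 fell from 105, 110, 161 and 167 CPM at S0 to 65.0, 75.8, 58.1 and 61.8 CPM at S3 (-1.02 ± 0.24, adjusted p = 0.00368 by edgeR, Benjamini-Hochberg). The change was smaller than 2-fold without MEL1 replicate 1 (-0.89) or 2 (-0.88). SNHG18 fell from 13.6, 16.6, 11.3 and 5.24 CPM to 4.54, 5.57, 3.01 and 3.62 CPM (-1.45 ± 0.29, adjusted p = 0.00107), with H1 replicate 2 at S3 above MEL1 replicate 2 at S0. SNHG8 was at 96.4, 93.8, 126 and 94.5 CPM at S0 and at 40.7, 45.4, 106 and 80.1 CPM at S3, and was not called (-0.68, adjusted p = 0.015, under 2-fold). In H1 alone it fell by 1.16 (adjusted p = 2.3e-05). SNHG29, at no more than 3.64 CPM, was called in no comparison.

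Of the microRNA hosts, MIR22HG rose in both lines, from 1.21 and 1.14 CPM to 12.1 and 13.6 CPM in H1 and from 9.07 and 6.33 CPM to 32.6 and 40.7 CPM in MEL1 (2.79 ± 0.34, adjusted p = 1.62e-05 by edgeR, Benjamini-Hochberg). MIR210HG, host of the hypoxia-responsive miR-210, rose from 0.726, 3.64, 0.824 and 0 CPM to 8.89, 5.99, 5.01 and 5.88 CPM (2.32 ± 0.66, adjusted p = 0.011). It stood at 14.9, 24.9, 11.8 and 11.1 CPM at S4 and at 15.3, 13.3, 43.8 and 28.7 CPM at S6. MIR205HG fell at S3 from 13.6, 13.7, 10.1 and 16.8 CPM to 6.12, 5.37, 5.51 and 4.98 CPM (-1.29 ± 0.35, adjusted p = 0.00911). MIR130AHG, MIR4453HG and MIR600HG were called in no comparison of level.

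**Figure D2:**
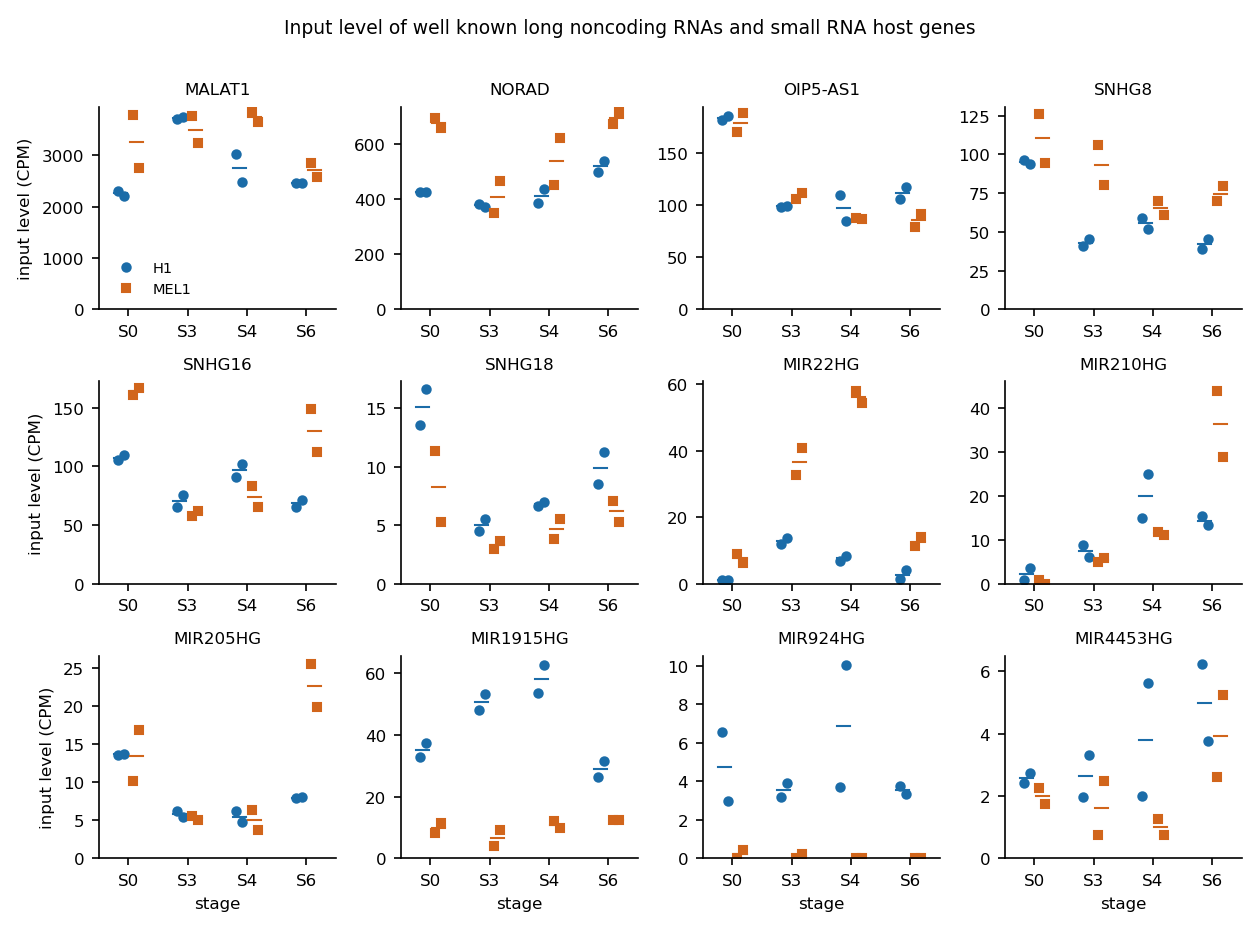
Input level (CPM) of MALAT1, NORAD, OIP5-AS1, 3 SNHG genes and 6 microRNA hosts by stage. Circles are H1 and squares MEL1 libraries, and bars are the means of 2. MIR22HG peaks at S3 and S4 and is higher in MEL1, MIR1915HG and MIR924HG are higher in H1, and MALAT1 shows no change that was called.

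None of the well-known members was called in a comparison of level, since the change of OIP5-AS1 stayed under 2-fold. MALAT1, a nuclear speckle RNA, ran from 2202 to 3780 CPM over the 4 libraries of S0, from 3239 to 3767 CPM at S3, from 2481 to 3863 CPM at S4 and from 2461 to 2853 CPM at S6, and was never called (0.42 ± 0.18 at S3 against S0). All its libraries of S3 lay above those of S6, and every other pair of stages overlapped. NORAD, a cytoplasmic RNA that binds PUMILIO proteins, was at 424, 426, 693 and 657 CPM at S0 and at 382, 370, 348 and 465 CPM at S3, and was not called in any comparison. OIP5-AS1, known as Cyrano, went from 182, 186, 170 and 189 CPM to 98.4, 99.5, 106 and 112 CPM, without overlap. Its log2 change of -0.80 ± 0.15 had an adjusted p of 0.000498 by edgeR, Benjamini-Hochberg, and it was at -0.89 (adjusted p = 0.000204) at S6 against S0. Of 25 lncRNAs on a separate list, 6 had counts (TUG1, TUNAR, MIAT, RMST, HCG11 and THAP9-AS1, the last also a member), and of these TUNAR fell by 3.16 ± 0.73 on the log2 scale (adjusted p = 0.003) and RMST by 2.39.

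From S3 to S4 the members called were 2 of 159 (1.26%), 1 higher and 1 lower, where 1.84% of all genes were called, 1.49% higher and 0.351% lower. At an unadjusted p under 0.05 there were 17 members (10.7%) and 13.5% of all genes. LINC00479 fell in both lines, to 2.72 and 3.02 CPM in H1 and 16.4 and 17.0 CPM in MEL1 (-2.03 ± 0.30, adjusted p = 0.00421 by edgeR, Benjamini-Hochberg), a call that was lost without MEL1 replicate 1 (-1.86, adjusted p = 0.119). DCTN6-DT returned to 1.49, 1.24, 0.841 and 1.85 CPM, 22 reads against 1 and a ratio of 24.6 (3.97 to 1014), with an adjusted p of 0.027 that rose to between 0.134 and 0.196 when either replicate of either line was left out at all stages. DESeq2 called 6 members in place of 2 (3.77%), 5 higher and 1 lower, and 3.73% of all genes, and in H1 alone 16 (10.2%) were called and 7.42% of all genes.

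From S4 to S6 the members called were 9 of 159, 5 higher and 4 lower, against 5.18% of all genes, 2.85% higher and 2.33% lower, and the stages did not overlap for 8 of the 159, 3 of them called (8.97% of all genes). The 5 that rose were VPS9D1-AS1, MIR205HG, PDE6B-AS1, CNN3-DT and DHRS4-AS1, and the 4 that fell were LINC01108, LBX2-AS1, MIR22HG and LINC00479. MIR22HG fell from 6.93, 8.25, 58.1 and 54.4 CPM to 1.42, 3.98, 11.2 and 14.1 CPM (-1.88 ± 0.33, adjusted p = 0.00378 by edgeR, Benjamini-Hochberg). LINC00479 fell further (-1.83 ± 0.35, adjusted p = 0.00706), and these were the 2 calls that held whichever replicate was left out. VPS9D1-AS1 went from 1.24, 3.57, 0.421 and 3.70 CPM to 7.47, 6.18, 10.9 and 20.6 CPM (2.15 ± 0.47, adjusted p = 0.016), but was not called without H1 replicate 1 (adjusted p = 0.108) or MEL1 replicate 2 (0.105). MIR205HG rose to 7.83, 7.95, 25.5 and 19.8 CPM (1.43 ± 0.37, adjusted p = 0.0315), and was not called without MEL1 replicate 1 (1.16) or 2 (1.17). LINC01108 had 30 reads at S4 and none at S6, at least 9.33-fold lower, and lost its call without MEL1 replicate 1 (adjusted p = 0.155) or 2 (0.184). LBX2-AS1 (-2.59 ± 0.72), PDE6B-AS1 (1.40) and CNN3-DT (1.14) lost theirs without any 1 of the 4 replicates, and DHRS4-AS1 (1.04 ± 0.26) without 3 of the 4, all but H1 replicate 2.

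Over the whole course, S6 against S0, 44 members were called (27.7%), 25 higher and 19 lower, where 31.4% of all genes were called, 17.5% higher and 13.8% lower. The median log2 change was 0.15 over the members and 0.03 over all genes, and the stages did not overlap for 35 of the 159 members, 29 of them called (38.0% of all genes). This comparison shares its S0 libraries with that of S3 and its S6 libraries with that of S6 against S4. Of the 33 LINC genes 9 rose and 7 fell, of 74 antisense genes 10 rose and 7 fell, and of 36 divergent transcripts 5 rose and 5 fell. KRTAP5-AS1 reached 15.8, 15.2, 3.37 and 1.21 CPM, 170 reads against 1 and a ratio of 199.6 (35.3 to 7929). LINC01145 rose by 4.47 ± 1.25 (27 reads against 1, a ratio of 31.7, 5.22 to 1298). MIR210HG rose by 4.33 ± 0.67 (adjusted p = 0.000113 by edgeR, Benjamini-Hochberg). LINC02972 was lower by -5.01 ± 0.23 (adjusted p = 9.81e-10), with 9.78, 7.95, 27.0 and 27.9 CPM left at S6. ARHGEF35-AS1 fell from 48.4, 42.8, 109 and 100 CPM to 3.56, 3.75, 16.9 and 10.9 CPM (-3.24 ± 0.24, adjusted p = 7.38e-08), and OR2A1-AS1 from 8.23, 8.20, 17.5 and 13.5 CPM to 0.712, 1.33, 1.497 and 1.62 CPM (-3.17 ± 0.37, adjusted p = 9.67e-06). LINC01108 went from 1.45, 1.82, 18.1 and 12.2 CPM to no read in any library of S6, at least 44.9-fold lower.

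The lines differed in their lncRNAs in one direction more than in the other. With stage in the model, 60 of 159 members were called between MEL1 and H1 (37.7%), 12 higher and 48 lower in MEL1, where 19.1% of all genes were called, 8.85% higher and 10.2% lower. The median log2 difference was -0.53 over the members and -0.06 over all genes. The 8 libraries of each line did not overlap for 10 of the 159 members, 8 of them called, and for 3.31% of all genes. Lower in MEL1 were 22 of 74 antisense genes, 13 of 36 divergent transcripts, 10 of 33 LINC genes, 2 of 8 microRNA hosts and GABPB1-IT1 (-1.499), and no SNHG gene and none of MALAT1, NORAD and OIP5-AS1 was called. At each stage taken alone, both MEL1 libraries lay below both H1 libraries in 35.8%, 42.8%, 43.4% and 47.2% of the members at S0, S3, S4 and S6, against 32.7%, 39.8%, 38.4% and 37.2% of all genes, and above them in 14.5% to 22.0% of the members against 31.4% to 35.9% of all genes. Members are less abundant than most genes of the table, so the share lower in MEL1 is also given by level. Below 1 CPM it was 18.5% of 27 members and 17.5% of other genes, between 1 and 5 CPM 36.1% of 61 members and 17.8% of other genes, and from 5 CPM 29.6% of 71 members and 8.11% of other genes.

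**Figure D3:**
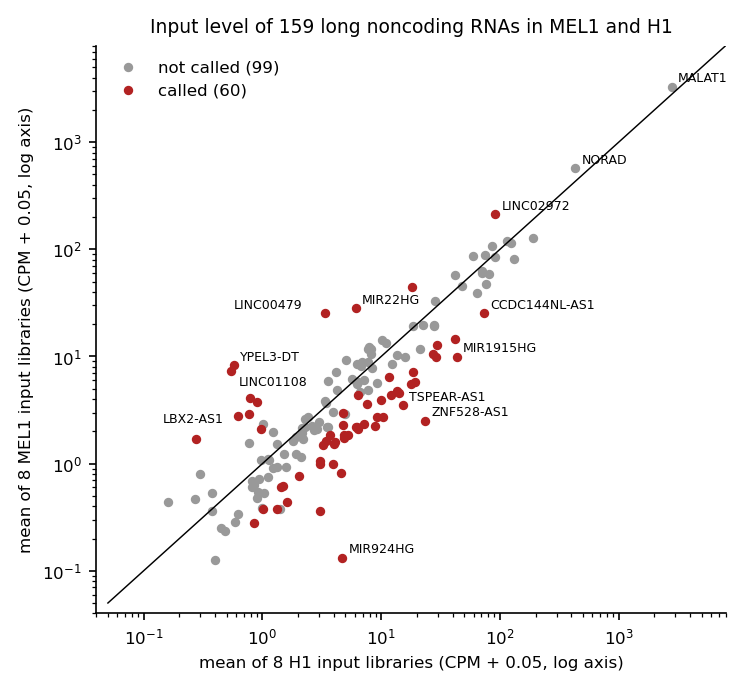
Mean input level of 159 lncRNAs over the 8 H1 libraries (x) and the 8 MEL1 libraries (y), in CPM plus 0.05 on log axes, with the line of equal level. Red points are the 60 called members, 48 of them below the line and 12 above it.

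Of the called members with a mean of at least 1 CPM, those higher in MEL1 by most were LINC01108, YPEL3-DT, LINC00479, MIR22HG and LBX2-AS1. YPEL3-DT, divergent to a gene linked to growth arrest, held 0 and 0 CPM in H1 against 10.9 and 10.03 CPM in MEL1 at S0, and 0.356 and 0.663 CPM against 9.36 and 3.64 CPM at S6 (3.93 ± 0.45, adjusted p = 1.59e-05 by edgeR, Benjamini-Hochberg). LINC01108 was higher by 4.12 ± 0.52, LINC00479 by 3.01 ± 0.27, MIR22HG by 2.29 ± 0.24 and LBX2-AS1 by 2.07 ± 0.51. Lower in MEL1 was MIR924HG, with 199 reads in H1 and 3 in MEL1, a ratio of 46.7 (15.7 to 228). ZNF528-AS1, antisense to a zinc finger gene, held 16.2, 12.3, 8.86 and 10.5 CPM at S0, where the lines were close. At S6 it held 24.2 and 26.3 CPM in H1 and no read in MEL1 (-4.12 ± 0.79 over all stages, adjusted p = 0.000927). MIR1915HG was at 26.5 to 62.8 CPM in the H1 libraries and 4.01 to 12.5 CPM in the MEL1 libraries over all stages, without overlap (-2.10 ± 0.23, adjusted p = 1.12e-05). GLYCTK-AS1 (-2.67 ± 0.72), SOX21-AS1 (-2.53 ± 0.66) and TSPEAR-AS1 (-2.18 ± 0.43) were also lower.

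Whether a stage change itself differed between the lines was tested as an interaction. From S0 to S3, 27 of 157 members tested had a different change in the lines (17.2%), 7 more positive and 20 more negative in MEL1, where 34.3% of all genes did, 16.6% more positive and 17.7% more negative. From S0 to S6 it was 29 of 156, 11 more positive and 18 more negative, where 25.2% of all genes did, 13.7% more positive and 11.4% more negative. These shares were not split by input level, and members are less abundant than most genes of the table. Without H1 replicate 2 the counts were 13 and 10, and without H1 replicate 1 the second was 14. CCDC144NL-AS1 went from 61.8 to 78.5 CPM in H1 and from 56.2 to 12.96 CPM in MEL1 (means of 2 libraries, difference -2.45 ± 0.29, adjusted p = 1.71e-06 by edgeR, Benjamini-Hochberg). TSPEAR-AS1 went from 6.71 to 21.9 CPM in H1 and from 7.44 to 2.46 CPM in MEL1 (-3.27 ± 0.54), and LINC00665 from 74.0 to 105 CPM and from 111 to 72.0 CPM (-1.13 ± 0.27). SLC9A3-AS1, antisense to a sodium and proton exchanger, rose in both, from 28.9 to 93.1 CPM in H1 and from 10.5 to 112 CPM in MEL1 (1.73 ± 0.40). LBX2-AS1 and EOLA2-DT at S3, and LBX2-AS1, LINC01108 and LINC02593 at S6, had no read in groups on both sides of the contrast and were not tested.

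Antisense, intronic and divergent members were set beside the gene in their name. Of 113 such members, 63 had a partner with counts. Of these, 19 members were called at S3 against S0, and the partner was called too in 6 pairs, 3 in the same and 3 in the opposite direction, where 28.8% of all genes were called. VPS9D1-AS1 fell by 1.70 on the log2 scale where VPS9D1 was at 1.96, ZNF747-DT changed by -2.96 where ZNF747 was at 1.47, and JMJD1C-AS1 by 3.84 where JMJD1C was at -1.41. RNASEH1-DT changed with its partner (-1.56 and -1.18), as did INKA2-AS1 (-2.72 and -1.79). At S6 against S0 both were called in 6 of 13 pairs, 4 in the same direction (31.4% of all genes were called), with ZEB1-AS1 at 1.67 and ZEB1 at 3.66. Between the lines both were called in 7 of 27 pairs, 6 in the same direction (19.1% of all genes were called), among them SOX21-AS1 and SOX21 (-2.53 and -3.50) and ZNF528-AS1 and ZNF528 (-4.12 and -2.55), while GLYCTK-AS1 and GLYCTK went opposite ways (-2.67 and 2.65). The strand setting of the counting is not given in the sources used here, and reads of overlapping antisense partners then cannot be told apart. The peak of MIR600HG held nearly the same counts as a peak of STRBP (2.75% of reads differing), so the level of MIR600HG is uncertain. LINC01106 and LINC01123 had similar counts (11.99% to 13.9% differing), as had the peak of OIP5-AS1 at 3301 and one of MRPL44 (12.3%), and whether they share reads was not tested.

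The IP libraries show how much of each transcript the m6A antibody recovered. Peaks of the members were called enriched in the IP more often than peaks of the table as a whole, while the median log2 ratio was below 0 at every stage for the peaks of SNHG genes (-4.59 to -1.42) and of MALAT1, NORAD and OIP5-AS1 (-3.75 to -1.17). Called lower were 4, 7, 7 and 7 of the 9 SNHG peaks and 8, 15, 10 and 18 of the 22 peaks of those 3 genes at S0, S3, S4 and S6. These fits pool the lines. The median over the peaks of those 3 genes at S4 was -4.59 and -5.51 in the H1 preparations and -0.09 and 0.03 in MEL1. At S0 it was -2.21 and -2.43 in H1 and -1.06 and -0.40 in MEL1. For the SNHG peaks at S4 it was -5.14 and -5.63 in H1 and -3.11 and -3.39 in MEL1. Of the lncRNAs outside the symbol rule, MIAT had 14 of 15 peaks with a mean ratio below 0, TUG1 3 of 12, TUNAR 1 of 2, HCG11 0 of 3 and RMST 0 of 1. The median of the mean ratios of all peaks was itself below 0 (-0.21). Enrichment is the log2 ratio of IP to input, scaled so that the typical peak of the table lies near 0, and a ratio of a single preparation has 1 read added to each count. At S0, 228 of 361 peaks were called, 206 higher and 22 lower in the IP, against 55.5% of all peaks, 30.6% higher and 24.9% lower. At S3 it was 242, 199 higher and 43 lower, against 61.3%, 30.3% and 31.0% of all peaks. At S4 it was 187, 137 higher and 50 lower, against 52.9%, 20.8% and 32.1%, and at S6 248, 201 higher and 47 lower, against 63.0%, 28.4% and 34.6%. At S4 the count was 116 without H1 replicate 1, and 221 (188 higher and 33 lower) with TMM within IP and within input. The median log2 enrichment of the lncRNA peaks was 1.88, 1.59, 1.06 and 1.71 at the 4 stages, and that of all peaks 0.28, 0.07, -0.30 and -0.12. Peaks without a read in the IP or the input of a stage, 3 to 10 of the members' at each, have no fitted size of their own, and with these at a floor of 3 reads per group the members' medians were 1.82, 1.59, 1.06 and 1.71.

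Peaks with few input reads had higher ratios in general, so the medians are given by level of the peak. Below 1 CPM the median enrichment at S0 was 2.83 in 76 lncRNA peaks and 2.29 in other peaks, between 1 and 5 CPM 1.58 in 156 lncRNA peaks and 0.53 in others, and from 5 CPM 1.36 in 129 lncRNA peaks and -0.24 in others. At S6 the pairs were 2.84 and 2.05, 1.63 and 0.02, and 1.13 and -0.61. Over all 16 preparations the median ratio of the lncRNA peaks ran from 0.22 to 1.72 and that of all peaks from -0.78 to 0.18, with the MEL1 preparations of S4 lowest in both. Called higher at all 4 stages were 104 of 361 lncRNA peaks (28.8%, in 84 genes) against 14.9% of all peaks, and lower at all 4 were 16 (4.43%, in 7 genes) against 19.4%, while 46 of 361 were never called, as were 4881 of all 26073. The 16 lay in MALAT1, NORAD, OIP5-AS1, SNHG8, SNHG18, LINC01001 and LINC02972. No antisense, divergent or microRNA host peak was among them, whereas 56 of 163 antisense, 18 of 65 divergent, 20 of 88 LINC and 7 of 13 microRNA host peaks were higher at all 4 stages.

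**Figure D4:**
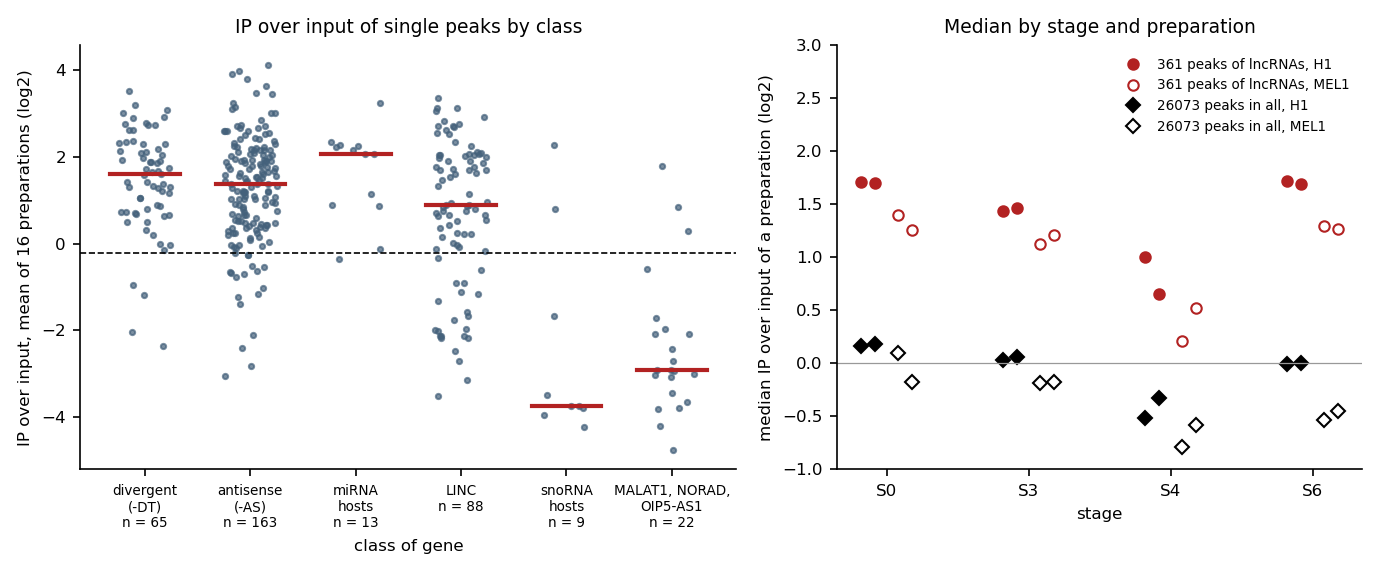
Left, mean log2 IP over input of 16 preparations for single lncRNA peaks by class of gene, with red bars at the class median and a dashed line at the median of all peaks (-0.21). Right, median log2 IP over input of each preparation by stage for the 361 lncRNA peaks (red) and all 26073 peaks (black), H1 filled and MEL1 open. The single peak of the intronic GABPB1-IT1 is left out on the left. Class medians are 1.61 for divergent and 1.39 for antisense genes, and -3.75 for SNHG genes.

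The highest mean ratios were those of ASH1L-AS1 at position 551 of the gene as listed (4.13, between 2.46 and 6.38 over 16 preparations), A1BG-AS1 at 2351 (3.99, 2.63 to 5.77) and DICER1-AS1 at 3501 (3.804, 0.71 to 5.03). All 3 were called higher at every stage. The first held 207 input and 10980 IP reads over all libraries. Within single stages the largest fitted enrichments were at peaks with few or no input reads, for which reads over the 4 preparations are given. MIF-AS1 at 1177 held 111 IP reads and no input read at S0, at least 10.8-fold higher in the IP per scaled library total against the floor of 3 reads. DCTN6-DT at 254 held 270 and 1 at S3, a ratio of 79.9 (exact 95% counting interval 14.2 to 3167). PRSS23-AS1 at 569 held 14 and none at S4, at least 2.09-fold higher, and was not called without H1 replicate 2 or MEL1 replicate 2. ZNF407-AS1 at 2743 held 188 and none at S6, at least 16.997-fold higher. Of the microRNA hosts, the peak of MIR210HG at 1672 was higher at all stages (2.76 ± 0.70, 3.11 ± 0.63, 3.87 ± 0.64 and 3.48 ± 0.63), with 776 input and 30169 IP reads. So was the peak of MIR22HG at 1037 (2.14 ± 0.34 to 2.35 ± 0.32, with 1.70 ± 0.31 at S4), while MIR205HG, with 1 peak at 3151, was called at none (0.74, -0.27, -0.77 and 0.55).

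NORAD, SNHG16, OIP5-AS1 and MALAT1 each had 1 peak that was enriched or near 0 among others with ratios below 0. In NORAD the peak at 3990 was higher in the IP at S0 (2.34 ± 0.23), S3 (1.75 ± 0.23), S4 (1.23 ± 0.23) and S6 (1.81 ± 0.23), with adjusted p from 3.69e-09 to 5.62e-05 by edgeR, Benjamini-Hochberg, and its 16 ratios lay between 0.57 and 2.47. The other 8 peaks of NORAD had mean ratios of -4.77 to -2.71, and that at 940 was the lowest of all lncRNA peaks ranked (-6.57 to -2.14). SNHG16 showed the same arrangement, with the peak at 3151 higher at every stage (2.41, 2.42, 2.13 and 2.51, each ± 0.40) and the other 3 at mean ratios of -3.96 to -3.75. In OIP5-AS1 the peak at 3301 was higher at S0 (1.33 ± 0.26) and S3 (1.03 ± 0.26) and the other 5 had mean ratios of -3.46 to -0.58. In MALAT1 the peak at 1351 held most reads, 146518 in the input and 600864 in the IP, and was called at no stage (0.78 ± 0.24 at S0, -0.01 ± 0.24 at S6). The other 6 had mean ratios of -3.82 to -1.72, and that at 8101 was lower at every stage. All 3 peaks of SNHG8 and the single peak of SNHG18 were lower at every stage.

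**Figure D5:**
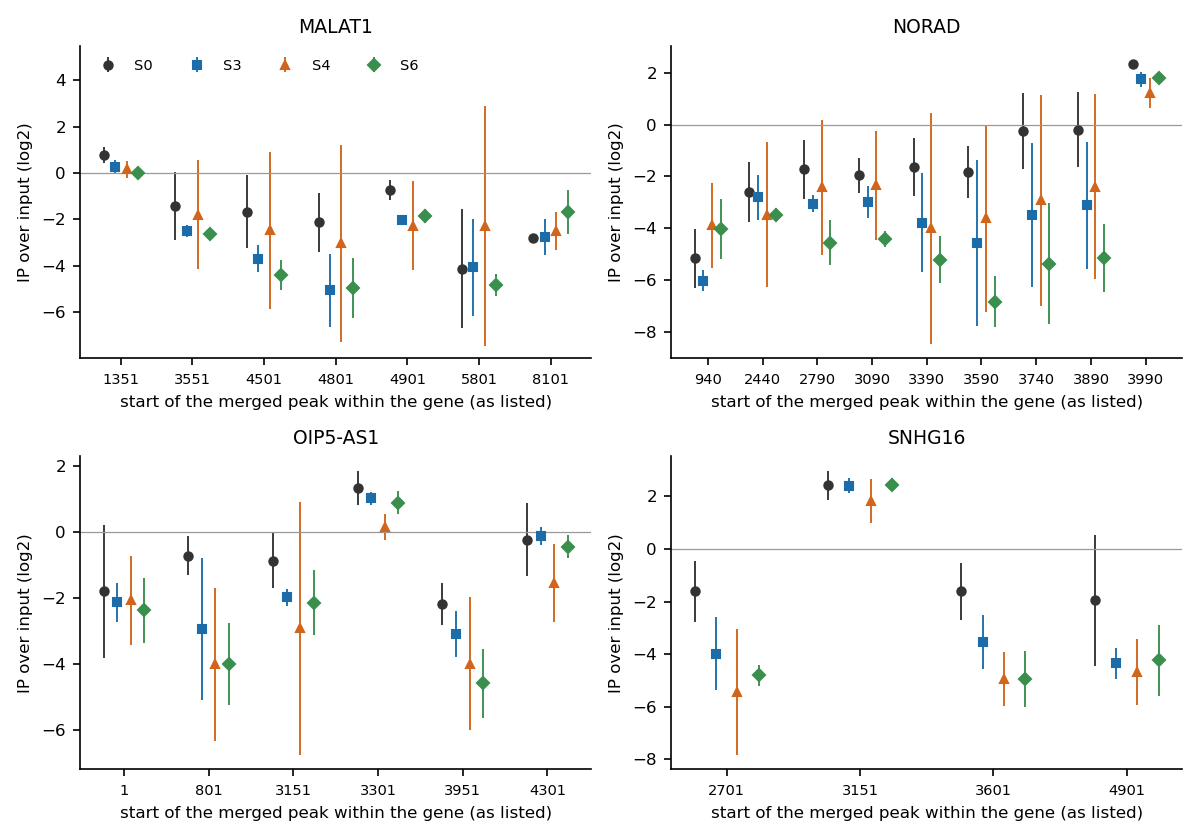
Log2 IP over input at each merged peak of MALAT1, NORAD, OIP5-AS1 and SNHG16, ordered by the start of the peak within the gene as listed. Points are means and bars SDs of 4 preparations at each stage. The peaks of NORAD at 3990 and SNHG16 at 3151 lie above 0 at every stage, and most other peaks lie below 0, with wide bars at S4 where the lines differ.

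A change of enrichment between stages was tested by letting the IP effect differ between them. From S0 to S3 none of 359 lncRNA peaks tested was called by edgeR's quasi-likelihood test, where 0.0499% of all peaks were called, 0.0307% higher and 0.0192% lower. At an unadjusted p under 0.05 there were 16 (4.46%) and 6.19% of all peaks, and DESeq2 called 3. In H1 alone 16 were called (4.48%, with 5.37% of all peaks) and in MEL1 alone 20 (5.81%, with 9.13%).

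From S3 to S4, 28 of 361 lncRNA peaks were called, 5 higher and 23 lower, against 6.56% of all peaks, 0.748% higher and 5.82% lower, and the median log2 change was -0.57 over lncRNA peaks (-0.54 with peaks that lack reads in a group at the floor) and -0.36 over all. The 23 that fell lay in LINC genes (7), antisense genes (9) and divergent transcripts (7). At EMSY-DT, divergent to a gene of a BRCA2 binding protein, the ratio of the peak at 605 was -1.33, -0.15, -1.14 and 0.91 at S3 in H1 replicates 1 and 2 and MEL1 replicates 1 and 2, -4.56, -5.26, -1.78 and -1.58 at S4, and 0.57, 1.22, 0.01 and -0.48 at S6. All 4 preparations of S4 lay below those of S3 and S6, but the MEL1 ratios rest on few reads. MEL1 held 9 IP and 2 input reads of the peak at S3 and 0 and 2 at S4. H1 held 58 and 29 at S3 and 0 and 23 at S4. Over both lines the IP libraries held 67 reads of the peak at S3 and none at S4, with 31 and 25 reads in the input, so that its IP over input was at least 11.9-fold lower against a floor of 3 reads (adjusted p = 0.0187 by edgeR, Benjamini-Hochberg). CCDC144NL-AS1 at 5001 went from 569 IP reads to none with 40 and 48 input reads, at least 150.1-fold lower (adjusted p = 0.0192), and CD63-AS1 at 1351 from 110 to none with 9 and 6, at least 16.1-fold lower (adjusted p = 0.0339). The value of CCDC144NL-AS1 rests on H1, with 558 IP and 39 input reads at S3 and 0 and 47 at S4. MEL1 held 11 and 1 at S3 and 0 and 1 at S4. WAC-AS1 at 394 rose (2.80 ± 0.80, adjusted p = 0.047), to ratios of 3.57, 2.73, 2.67 and -0.49, as did EMSY-DT at 705 (4.07 ± 1.35), and NORAD at 940 went from no IP read to 11, at least 7.28-fold higher. The calls on these peaks were all lost without H1 replicate 2, where the adjusted p ran from 0.272 (WAC-AS1 and EMSY-DT at 605) to 0.407 (EMSY-DT at 705), and those other than NORAD's also without H1 replicate 1 (0.237 for EMSY-DT at 605 to 0.408 for WAC-AS1). EMSY-DT at 705 was also not called without MEL1 replicate 1 (0.213), nor NORAD at 940 without MEL1 replicate 2 (0.174). With the RNA preparation, from which an IP and its input both come, as a block, the calls on WAC-AS1 (adjusted p = 0.12), EMSY-DT at 705 (0.144) and NORAD at 940 (0.288) were lost. The H1 IP libraries of S4 had the lowest mitochondrial shares of all IP libraries (0.0466% and 0.0511%). The part of this in the calls was not tested. Without H1 replicate 1 the count was 1 and without H1 replicate 2 it was 2 of 28, and without MEL1 replicate 2 it was 9. The scaling moved it too, to 10 with RLE (4 higher and 6 lower), 13 with upper quartile (4 and 9) and 14 with TMM within IP and within input (4 and 10), DESeq2 called 30 (10 and 20), and in H1 alone 149 were called (41.3%, with 45.8% of all peaks).

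From S4 to S6, 34 of 361 were called, 30 higher and 4 lower, against 7.56% of all peaks, 5.29% higher and 2.27% lower, and the median log2 change was 0.75 over lncRNA peaks (0.74 with such peaks at the floor) and 0.19 over all. The comparison shares its S4 libraries with the one before, among them the H1 IP libraries with the lowest mitochondrial shares. The peak of EMSY-DT at 605 went from no IP read at S4 to 264 at S6, with 25 and 43 input reads, at least 30.9-fold higher (adjusted p = 0.00625 by edgeR, Benjamini-Hochberg). CD63-AS1 at 1351 went from none to 56, with 6 and 5 input reads, at least 13.5-fold higher (0.0381), and ZNF407-AS1 at 2743 from 79 IP and 6 input reads to 188 and none, at least 2.88-fold higher (0.0905). Those that fell were NORAD at 3590 (-5.21 ± 1.68), 2790 (-2.67 ± 0.92) and 3090 (-2.39 ± 0.78) and MALAT1 at 4501 (-3.61 ± 1.19). The lines stood apart at S4 in both genes. MALAT1 at 4501 had ratios of -5.17 and -5.59 in H1 and 0.68 and 0.25 in MEL1, and NORAD at 3390 had -7.93 and -7.75 in H1, where the IP held no read of it, and 0.39 and -0.73 in MEL1, the MEL1 IP libraries of S4 being the shallowest. In H1 alone MALAT1 at 4501 changed by 1.39, and NORAD at 3590 went from no IP read at S4 to 9 at S6, the opposite direction. Leaving out H1 replicate 1 left 1 call of 34, H1 replicate 2 left 3, MEL1 replicate 1 gave 17 and MEL1 replicate 2 gave 15. EMSY-DT was not called without H1 replicate 1 (adjusted p = 0.128) or 2 (0.142), CD63-AS1 without these (0.105 and 0.298) or MEL1 replicate 1 (0.128), and ZNF407-AS1 without any 1 of the 4 (0.127 to 0.485). With RLE or upper quartile scaling 22 were called, 14 higher and 8 lower, with TMM within IP and within input 23 (16 and 7), by DESeq2 49 (30 and 19), and in H1 alone 155 (43.1%, with 41.9% of all peaks). The 4 peaks that fell are named because they were few, NORAD at 3090 after its value was seen, and MALAT1 at 4501 and NORAD at 3590 and 2790 were not called without any 1 replicate (adjusted p of at least 0.124). With the RNA preparation as a block 24 were called, 24 higher and 0 lower, so that these 4 calls were lost, as was that of ZNF407-AS1 (adjusted p = 0.211).

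Between MEL1 and H1, averaged over stages, 53 of 301 lncRNA peaks tested were called, 23 higher and 30 lower in MEL1, against 21.1% of all peaks, 5.26% higher and 15.9% lower. The direction of this split depended on the scaling, since RLE gave 36 higher and 14 lower, upper quartile 38 and 13, TMM within IP and within input 35 and 16, and DESeq2 41 and 19. The shares of all peaks under these settings are not given here, so whether all peaks turned alike is not shown. The median log2 difference was -0.12 over lncRNA peaks and -0.25 over all peaks, and 0.14 over lncRNA peaks with RLE and 0.22 with upper quartile scaling. A further 60 lncRNA peaks and 9.02% of all peaks had no read in groups on both sides of the contrast and were not tested. Of 17 tested peaks of MALAT1, NORAD and OIP5-AS1, 9 were higher and 1 lower in MEL1, and 10 were higher and 1 lower with RLE, but without H1 replicate 1 only 5 of 16 were higher and 0 lower. The splits of the LINC, antisense and divergent classes turned with the scaling, from 4 higher and 9 lower of 75 LINC peaks to 8 and 3 with RLE, from 8 and 14 of 132 antisense peaks to 11 and 7, and from 1 and 4 of 57 divergent peaks to 6 and 1. MALAT1 at 3551 was higher by 1.71 ± 0.13 (adjusted p = 2.88e-09 by edgeR, Benjamini-Hochberg), with ratios at S4 of -4.14 and -3.49 in H1 and 0.18 and 0.30 in MEL1. NORAD at 3390 was higher by 2.67 ± 0.53 (0.000639) and OIP5-AS1 at 3151 by 2.44 ± 0.35 (1.69e-05). FGD5-AS1 at 2682 was higher by 3.58 ± 0.67 (0.000294) but not called without H1 replicate 1 (2.51, 0.128), and MAP3K9-DT at 401 by 3.49 ± 1.06 (0.0178), not called without H1 replicate 1 (0.114) or 2 (0.273). SNHG8 at 51 was lower in MEL1 (-3.07 ± 0.44, 1.51e-05), with ratios from -2.20 to -4.95 in H1 and from -4.13 to -7.37 in MEL1. LINC01001 at 174 was lower by -3.18 ± 0.76 (0.00292), not called without H1 replicate 2 (0.111) or MEL1 replicate 2 (-1.20, 0.321), and RAB11B-AS1 at 707 by -3.16 ± 0.95 (0.0156), not called without H1 replicate 1 (0.147) or 2 (0.191). Of these fitted differences, those of FGD5-AS1, NORAD at 3390, OIP5-AS1 at 3151, RAB11B-AS1 and SNHG8 at 51 each rest in part on 1 group of 2 libraries with 3 reads or fewer, and that of MAP3K9-DT on 3 such groups. Without H1 replicate 1 the count was 15 and without H1 replicate 2 it was 23.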

How the data were processed

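m6A sequencing was analysed in 16 input and 16 IP libraries from H1 and MEL1 cells. Per the study's methods, mRNA was bead-purified, sonicated and immunoprecipitated with an m6A antibody, and stranded libraries were sequenced. The authors deposited raw read counts per merged peak, made with MeRIPtools on an Ensembl annotation. The aligner, genome build and strand setting are not given in the sources used here. Of 26104 rows, 31 pseudoautosomal copies were left out. The name table gave a symbol for 7596 of 7978 genes, and 382 had none. Members, gene lists and tests were chosen with earlier results of these data known.

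The input counts of a gene were summed over its peaks, and features with a total under 10 were left out, which removed 1 member. CPM used TMM-scaled library totals. Level was tested with edgeR 4.0.16 (quasi-likelihood, limma 3.58.1, R 4.3.3) with stage and line as terms, and m6A with the interaction of library type and stage or line. Calls needed p below 0.1 after Benjamini-Hochberg adjustment and at least a 2-fold change. Standard errors were derived from the F statistic. Where opposed groups of libraries of a contrast both held no read the feature was not tested, a choice made after seeing the data. Replicates are independent biological samples per the study. In fits with a line term only, p-values measure their spread together with any difference of the stage or IP effect between the lines. In each line alone, and in tests of a line difference of a stage change or of m6A, they measure that spread. Counting intervals are exact at 95% and cover counting error only, as does the floor of 3 reads. Differences between replicates exceeded sampling noise in every pair (chi-square per degree of freedom 1.68 to 36.5), so no library was counted as a copy. The H1 input pairs stood at 1.93, 1.91, 7.08 and 1.68 at S0, S3, S4 and S6, and the MEL1 input pairs at 4.59 to 15.3. These values do not show how independent the replicates of a line are.

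Named were the well-known, SNHG and MIR...HG members, the 5 called members with the largest rise and fall per comparison (mean of at least 1 CPM), the 3 peaks with the largest rise and fall and the 3 with the highest and lowest mean ratio (at least 10 input reads per stage), members whose change differed between lines, and genes in the names of antisense, intronic and divergent members. Alternatives were DESeq2 1.42.0 (the study's tool), RLE, upper quartile and separate TMM scaling, other filters, a replicate block, each line alone, no line term, only the 8 libraries compared, no mitochondrial genes, and leaving out each replicate number of a line at all stages. Tested on simulated data, the fit found 38 of 100 genes changed 2-fold and 83 of 100 changed by 2 on the log2 scale for S3 against S0 (7971 genes), but none of 100 peaks of either size for the m6A change from S3 to S4 (26073 peaks). With the dispersion divided by 10 it found 33 and 81 of 100 such peaks. For m6A between the lines, at the fitted dispersion, it found 9 and 76. Each simulated feature had 1 mean over all libraries apart from the added changes, unlike the data. The real libraries gave 1711 calls for the m6A change from S3 to S4, so the simulation does not measure how often that test finds a change. Python 3.11.15, pandas 2.3.3, scipy 1.17.1 and matplotlib 3.10.9 were used.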

Additional observations from a re-analysis of the deposited data

Results flagged for a closer look

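In 4 of 136 groups of 4 input libraries 1 library lay apart from the other 3, where chance alone flags about 1 in 20. These were KRTAP5-AS1 at S3 (MEL1 replicate 2 at 4.5246 CPM, the others at 0.7515 to 1.185), MALAT1 at S3 (MEL1 replicate 2 at 3238.72 CPM, the others at 3705.95 to 3766.85), OIP5-AS1 at S4 (H1 replicate 1 at 109.878 CPM, the others at 85.2176 to 87.9296) and SNHG8 at S0 (MEL1 replicate 1 at 126.314 CPM, the others at 93.8419 to 96.3711).

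The change of 40 lncRNAs differed between the lines in 56 tests of the difference itself. From S0 to S3 the log2 change was lower in MEL1 than in H1 for TSPEAR-AS1 (-3.274), EMSY-DT (-2.805), LINC02893 (-2.771), LINC02575 (-2.547), LINC00847 (-2.54), CCDC144NL-AS1 (-2.454), PITPNA-AS1 (-2.407), LINC02387 (-2.197), TFIP11-DT (-1.989), LINC01224 (-1.629), TMEM147-AS1 (-1.488), LINC00665 (-1.127) and MIR1915HG (-1.07). It was higher for LINC00526 (2.252), SLC9A3-AS1 (1.729), GTF3C2-AS2 (1.68), HSD17B1-AS1 (1.25) and LINC00205 (1.052). Where a group was near 0 the adjusted p stands in place of the size, lower in MEL1 for ZNF528-AS1 (1.353e-06), SOX21-AS1 (0.01004), SETBP1-DT (0.02802), YPEL3-DT (0.03464), ZNF747-DT (0.0758), ZNF225-AS1 (0.08334) and LINC03077 (0.08905), and higher for ARHGAP5-AS1 (0.01888) and JMJD1C-AS1 (0.02008).

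From S0 to S6 it was lower in MEL1 for TSPEAR-AS1 (-2.984), LINC02575 (-2.919), LINC01224 (-2.788), TRIM52-AS1 (-2.588), LINC00847 (-2.585), TFIP11-DT (-2.4), EMSY-DT (-2.239), LINC02893 (-2.025), LINC00665 (-1.691), CCDC144NL-AS1 (-1.643), ASB16-AS1 (-1.603) and CTBP1-DT (-1.472). It was higher for MIR210HG (3.654), LINC01106 (2.554), LINC01123 (2.532), MIR205HG (1.539), SLC9A3-AS1 (1.523), GTF3C2-AS2 (1.341) and VASH1-AS1 (1.287). Near 0 the adjusted p was 2.748e-06 for ZNF528-AS1, 0.003771 for ZNF225-AS1, 0.04823 for TDRKH-AS1, 0.05241 for YPEL3-DT, 0.08329 for GLYCTK-AS1 and 0.0928 for INKA2-AS1, all lower in MEL1, and 0.04506 for ADIRF-AS1, 0.05306 for ARHGAP5-AS1, 0.05445 for MAP3K9-DT and 0.09644 for JMJD1C-AS1, all higher.

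Whichever replicate number of a line was left out, the call from S0 to S3 held for ZNF528-AS1, SETBP1-DT, TSPEAR-AS1, EMSY-DT, LINC02893, LINC02575, LINC00847, CCDC144NL-AS1, TMEM147-AS1, LINC00665 and SLC9A3-AS1, and that from S0 to S6 for ZNF225-AS1, ZNF528-AS1, TSPEAR-AS1, LINC01224, LINC00847, LINC00665, CCDC144NL-AS1 and LINC01123. The others were lost in at least 1 case.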

How the results depend on the processing

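Of the counts under other settings, 159 stayed within 1.5 times the value reported and 40 did not. For the level at S4 against S3 (2 called) the count was 6 by DESeq2, 16 in H1 alone, 6 in MEL1 alone, 1 with filterByExpr or with no line in the model and 6 with only the 8 libraries compared, and for S6 against S4 (9) it was 14 by DESeq2, 22 in MEL1 alone, 3 with no line in the model and 14 with only the 8 libraries. For the m6A change at S3 against S0 (0) it was 3 by DESeq2, 16 in H1 alone and 20 in MEL1 alone. At S4 against S3 (28) it was 149 in H1 alone, 10 with RLE, 14 with TMM within IP and within input and 13 with upper quartile scaling. At S6 against S4 (34) it was 155 in H1 alone and 22 with RLE or upper quartile scaling. The cause was not tested.

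Leaving out 1 replicate number of a line at all stages gave 39 to 61 calls for level at S3 against S0, 0 to 1 at S4 against S3, 2 to 12 at S6 against S4, 38 to 41 at S6 against S0, 43 to 53 between the lines, and 13 to 32 and 10 to 27 for the line differences at S3 and S6. For m6A it gave 181 to 213, 196 to 225, 116 to 195 and 213 to 253 within S0, S3, S4 and S6, 0 to 0, 1 to 22 and 1 to 17 for the changes, and 15 to 71 between the lines. In H1 alone the direction was opposite for TSPEAR-AS1 at 1901 within S0 (0.726), MALAT1 at 4501 (1.391) and NORAD at 3590 (3.114) from S4 to S6. Of the values of single genes and peaks 2412 kept direction and call, 230 lost the call, 10 gained it and these 3 reversed.

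Same-numbered samples of different stages correlated at 0.19 to 0.254 in MEL1, a hint from the data that its numbers link the stages, and at -0.0755 to 0.0489 in H1, and neither the labels nor the study say what a number shares, so the values reported have no block. With the replicate block the level counts were 56, 2, 8 and 43, the line differences 27 and 29, enrichment 221, 239, 176 and 246 and its changes 0, 22 and 25, and PDE6B-AS1 at S6 against S4 and the line differences of LINC02387, ZNF747-DT and JMJD1C-AS1 (S6) lost their calls, as did the changes of the peaks of EMSY-DT at 705, NORAD at 940, 2790 and 3590, MALAT1 at 4501 and ZNF407-AS1 at 2743. A block by RNA preparation, added after seeing the data, gave 225, 243, 186 and 252, changes of 0, 25 and 24, and 42 between the lines. RLE scaling lowered the median enrichment of lncRNA peaks at S0 from 1.88 to 1.26. The MEL1 IP libraries of S4 were the shallowest, and the part of depth in the results at S4 was not tested. The H1 IP libraries of S4 had the lowest mitochondrial shares, and the part of that was not tested either.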
